A study of Mus musculus with 2 samples.

Results

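MiR-218 is a miRNA encoded inside the genes of its own signalling pathway, and it was studied here in E9.5 WT mouse hearts. Its entries were found by name, as all precursors whose mature miRNA is called miR-218 when the arm and copy number are ignored. This gave 3 of the 620 precursor entries of the series, each listed in both replicates, and position separated them into 2 loci. The samples were 2 replicates of wild type C57BL/6 embryonic hearts at E9.5, with no second condition, so the design offers the abundance of miR-218, the comparison of its loci and the comparison of the replicates. The labels do not say whether the replicates came from separate pools of embryos, so the spread between them may be technical. Whole hearts were sequenced, so the cells that made the miRNA cannot be told apart. The labelled tissue was checked against heart muscle miRNAs, of which miR-1a-1-3p held a mean of 10.23% of mature reads, and both entries of miR-133a-3p had a mean of 1.21%.

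A miRNA hairpin is cut from a longer transcript and then diced into a duplex, of which the mature strand is usually kept and the other, the star strand, is usually lost. SLIT proteins are secreted ligands of ROBO receptors, and the pair guides axons, migrating cells and growing vessels. MiR-218 lies in introns of Slit2 and Slit3, and it is known for repressing Robo1 and Robo2, for regulating heparan sulfate synthesis in vessels and for its high level in motor neurons. Both ligands and receptors are also known to act in heart morphogenesis.

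The mature arm of both loci was identical in the tables, which give a consensus of 20 nt. The RefSeq mature sequence (GRCm38.p6) is 21 nt and ends 1 base later. The seed, bases 2 to 8, is in capitals, because it sets which transcripts are matched.

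miR-218-5p, tables: uUGUGCUUgaucuaaccaug

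miR-218-5p, RefSeq: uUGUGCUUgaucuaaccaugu

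Such a shorter consensus was common, since of 302 consensus sequences with the same start as a RefSeq mature sequence, 146 had its length, 96 were 1 base shorter and 22 were shorter still. The seed was found in 3 of 620 entries, all of them miR-218. Of 1738 mature sequences in RefSeq, 3 hold this seed at bases 2 to 8, under the names miR-218-5p and miR-7002-3p. MiR-218 was thus alone with its seed among the listed miRNAs.

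The star arms differ between the loci, and they are shown because they can separate loci that the mature arm cannot. Capitals mark the base that differs over the 19 bases that both arms cover, U9C, counted from the 5′ end of miR-218-2-3p with the Slit3 base first.

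miR-218-2-3p, Slit3 locus, RefSeq: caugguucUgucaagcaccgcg

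miR-218-1-3p, Slit2 locus, RefSeq: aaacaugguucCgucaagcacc

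The loci also part right beside the mature arm. With the next 8 genomic bases and the base before, capitals mark the bases on either side at which the loci first differ, and the 22 bases between them are the same at both.

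Slit3 locus, chr11:35430342-35430405, plus strand: UuugugcuugaucuaaccaugugGuggaa

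Slit2 locus, chr5:48615205-48615268, plus strand: GuugugcuugaucuaaccaugugCuugcg

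The first difference in the 3′ direction, G against C, falls on base 23 from the 5′ end of the miRNA. These positions are those of the precursors in mm9, whose sequences in NCBIM37 were the same as in the tables for all 620 entries.

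Both hairpins lie in intron 14 of their host, on the strand of the gene, in the GENCODE vM1 transcripts Slit3-001 and Slit2-001, which have 36 exons each. In Slit3 (ENSMUSG00000056427.4, chromosome 11, 34934726 to 35522009) the intron spans 35425939 to 35435509, and its 9571 bases hold the precursor 4404 bases after exon 14. In Slit2 (ENSMUSG00000031558.8, chromosome 5, 48374394 to 48697521) the intron runs from 48611320 to 48615891. It is 4572 bases long, and exon 15 begins 624 bases past the end of the precursor. The hairpins stand 496 kb and 239 kb from the transcript starts. No exon of the 4 Slit3 and 21 Slit2 transcripts covers an entry. No other listed miRNA lies in either gene or within 10 kb of a hairpin, and the nearest was miR-103-1-3p, 166 kb from the Slit3 hairpin. The host mRNAs were not measured in these libraries.

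**Figure D1:**
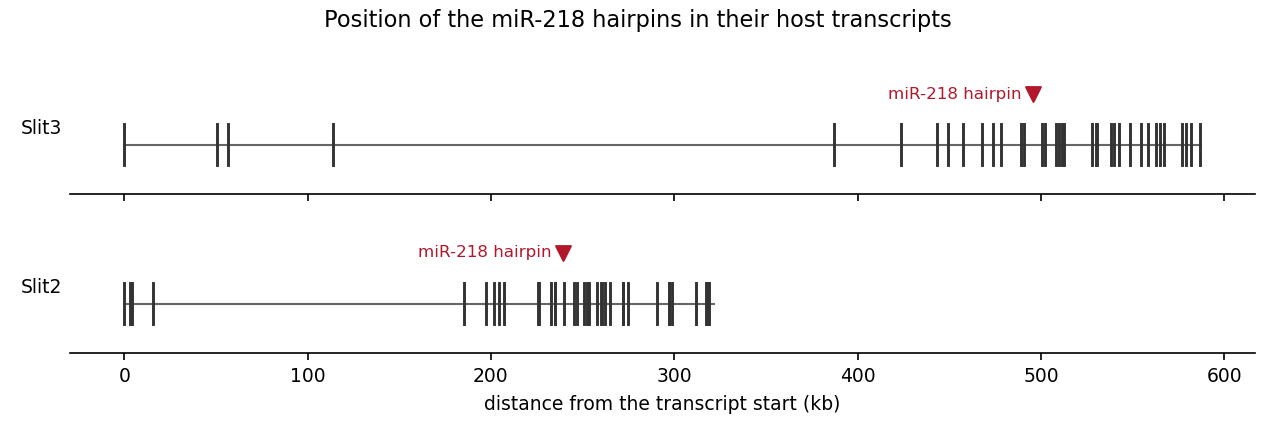
Position of the miR-218 hairpins (red triangles) in Slit3-001 and Slit2-001, with exons as vertical bars and the distance from the transcript start in kb on the horizontal axis. Both hairpins lie in the later part of the transcript, at 496 kb in Slit3 and 239 kb in Slit2, in intron 14 of each.

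MiR-218-5p was among the abundant miRNAs of the E9.5 heart. Mature reads are the reads on the 20-nt arm above, and the share is their percent of all mature reads in a replicate, 4942257 in replicate 1 and 4806179 in replicate 2. At the Slit3 locus, 36815 mature reads were counted in replicate 1 and 35377 in replicate 2. The shares were 0.745% (95% Wilson confidence interval 0.737% to 0.753%) and 0.736% (0.728% to 0.744%), with a mean of 0.740% ± 0.0062 (SD, n = 2). These intervals cover read-counting error only. The entry ranked 26 of the 471 listed in both replicates, 26 in replicate 1 and 27 in replicate 2. At the Slit2 locus, 25965 and 24400 mature reads gave shares of 0.525% and 0.508%, a mean of 0.517% ± 0.0125 (SD, n = 2) and rank 36. When entries with an identical mature sequence were reduced to the highest of them, miR-218-5p stood at rank 19 of 388 sequences with 1.01% ± 0.0044 (SD, n = 2).

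**Figure D2:**
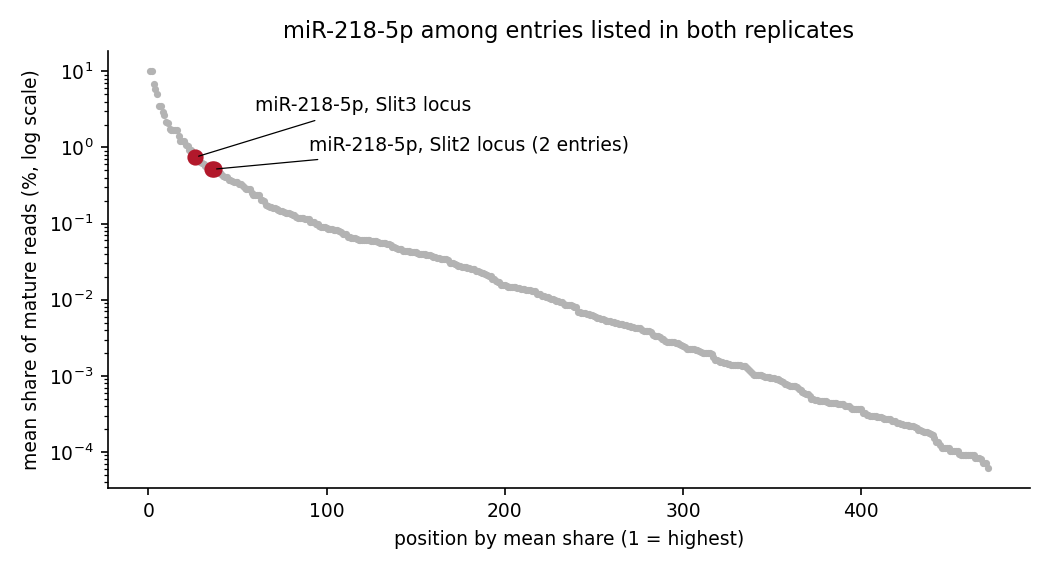
Mean share of mature reads (percent, log scale) of the 471 entries listed in both replicates, in order from the highest, with the 3 miR-218-5p entries in red. The Slit3 entry stands at position 26 with 0.740% and the Slit2 entries share rank 36 with 0.517%.

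The entries next above and below the Slit3 locus show how far this order can be read. Above it were miR-30d-5p, with 0.849% ± 0.0105, and both miR-7a-5p entries, the higher with 0.930% ± 0.051 (SD, n = 2 for each). All of these were higher than miR-218-5p in both replicates. Next below was miR-27b-3p, with 0.736% in replicate 1 and 0.639% in replicate 2, a mean of 0.687% ± 0.069 (SD, n = 2). MiR-30a-5p followed with 0.704% and 0.615%. The share of miR-351-5p was 0.525% in replicate 1 but 0.749% in replicate 2, above miR-218-5p there. MiR-27b-3p was lower in both replicates but by less, on average, than its own SD, and miR-351-5p changed sides, so miR-218-5p did not differ from these beyond the spread between replicates. MiR-30a-5p was lower in both replicates, by more than its SD of 0.063.

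The replicates gave nearly the same share. Replicate 2 differed from replicate 1 at the Slit3 locus by a log2 ratio of -0.017 (adjusted p = 0.2, two-sided exact binomial test with Benjamini-Hochberg adjustment over 431 entries). At the Slit2 locus the ratio was -0.049, with replicate 1 the higher (adjusted p = 0.00044, same exact test). This test knows sampling noise only, and by it 41.1% of the 431 entries differed between the replicates, of which replicate 2 was the higher for 27.6% of the 431 and replicate 1 for 13.5%. Scaled by total mature reads, 5.80% of entries had a ratio smaller in size than the Slit3 locus, and 15.8% one smaller than Slit2. The median absolute log2 ratio was 0.190. These percentages were not computed under other scalings. With the spread of all entries included, as edgeR's common dispersion (a biological coefficient of variation of 15.2%), neither locus passed the test (adjusted p = 1, edgeR exact test). That edgeR test passed only 3 of the 431 entries. Its dispersion came from the same 2 replicates, so their difference is itself counted as spread, and not passing says little about miR-218. The totals were also one of several possible scalings. Under DESeq2 size factors the Slit3 ratio was -0.085 (adjusted p = 1.2e-14, exact binomial test) and 44.3% of the entries that passed were higher in replicate 2, against 48.3% with TMM and 67.2% with the totals.

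Although their mature sequences are identical, the loci did not hold equal numbers of mature reads. The Slit2 locus held 70.5% of the count of the Slit3 locus in replicate 1 and 69.0% in replicate 2, a mean of 69.7% ± 1.10 (SD, n = 2). The difference was 10850 reads in replicate 1 and 10977 in replicate 2. The distance from equal counts was thus far larger than the spread between the replicates, and its direction was the same in both. The loci summed to 1.26% ± 0.019 of mature reads (SD, n = 2). How reads that fit both loci were counted is not stated, and a read counted at both would enter this sum more than once. The deposited counts do not say which reads were placed at only 1 locus, so the reads behind the difference could not be examined.

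Such a gap was uncommon among miRNAs with several loci. In 20 pairs of loci with an identical consensus mature sequence at separate positions and at least 1000 mature reads in each replicate, miR-218-5p was the most unequal. Of the other 19 pairs, 15 had a lower locus with over 99% of the reads of the higher one, and the median was 99.8%. The next most unequal pair was miR-92a-3p, of the proliferation-linked miR-17 to miR-92a clusters, whose locus on chromosome X held 79.2% and 80.4% of the reads of the chromosome 14 locus, a mean of 79.8% ± 0.86 (SD, n = 2). MiR-1a-3p and miR-133a-3p are both made in heart muscle. The miR-1a-3p loci held 492873 and 492871 reads in replicate 1 and 503921 and 503920 in replicate 2, and the miR-133a-3p loci had 60757 reads each in replicate 1 and 57080 each in replicate 2. For miR-26a-5p the loci held 78821 and 78819 reads in replicate 1, and for miR-7a-5p 47728 and 47697. Among the other 19 pairs, 12 had 2 or fewer shared bases past the 3′ end of the mature arm, as the miR-218 loci do, and in these the lower locus held between 79.8% and 100% of the reads of the higher. The 4 other pairs under 99%, those of miR-92a-3p, miR-128-3p (97.8%), miR-103-3p (98.8%) and miR-19b-3p (98.9%), share 0 or 1 base there. The 7 pairs that share 3 or more bases all lay at 99.97% or above. Of the other pairs, 9 share fewer bases than the miR-218 loci and 3 the same number, and several of these had nearly equal counts. The cut at 2 bases is the value of miR-218 itself, and the bases before the mature arm are not used in it. MiR-128-3p, miR-103-3p and miR-19b-3p were named after their values were seen, and the part of the flanking bases in the gap was not tested.

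**Figure D3:**
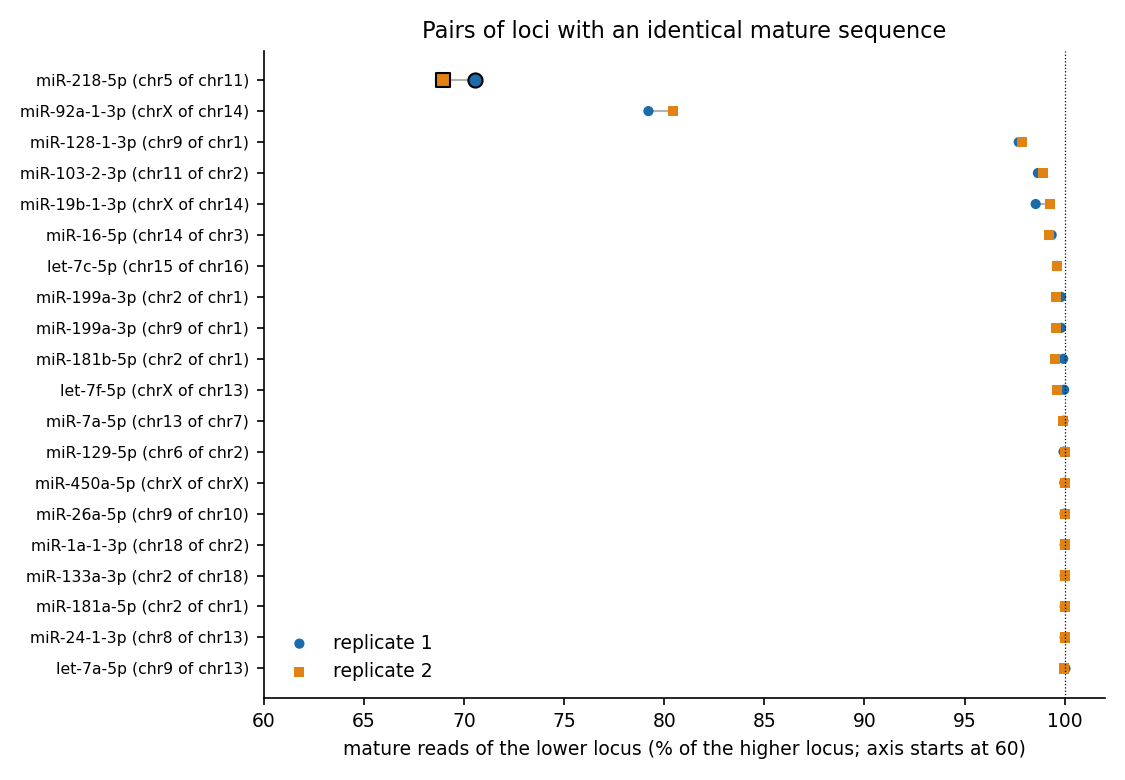
Mature reads of the lower locus as percent of the higher locus, for 20 pairs of loci with an identical mature sequence, in replicate 1 (circles) and replicate 2 (squares). The horizontal axis does not start at 0. MiR-218-5p lies at 70.5% and 69.0%, miR-92a-1-3p at 79.2% and 80.4%, and the other pairs lie at 97.7% or above.

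Reads counted in the parts of the hairpin that differ between the loci were mainly at Slit3. The star arm had 10 reads in replicate 1 and 15 in replicate 2 at the Slit3 locus, and 0 in both at the Slit2 locus. All star reads were thus at Slit3, with a lower Wilson limit of 72.2% in replicate 1 (adjusted p = 0.002) and 79.6% in replicate 2 (adjusted p = 0.00012, two-sided exact binomial test against an even split in both cases). The loop between the arms had 45 and 30 reads at Slit3, against 2 and 2 at Slit2, so 95.7% and 93.8% of loop reads were at Slit3. The windows that miRDeep2 used were not alike. The star arm of the Slit3 locus in the tables is the RefSeq miR-218-2-3p sequence itself, whereas that of the Slit2 locus, for which the tables list 0 reads, starts 5 bases downstream of RefSeq miR-218-1-3p. Because the windows differ, star and loop reads were also summed. They gave 55 against 2 reads in replicate 1 and 45 against 2 in replicate 2, a share of 96.1% ± 0.53 at Slit3 (SD, n = 2). The sum need not recover reads outside both windows. In the Slit2 precursor the RefSeq arm spans bases 40 to 61 and the star window bases 45 to 64. How far the windows set the split was not tested. The exact test also takes reads as independent molecules, which they need not be. A one-sided star arm was common among the other 19 pairs of loci with an identical mature sequence, of which 11 had over 90% of their star reads at 1 locus. In 2 of them, let-7c-5p and miR-7a-5p, 1 locus had no star read, and let-7c-5p was named after its values were seen. These small counts describe reads that survived as star or loop, not the amount of mature miRNA each locus made.

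**Figure D4:**
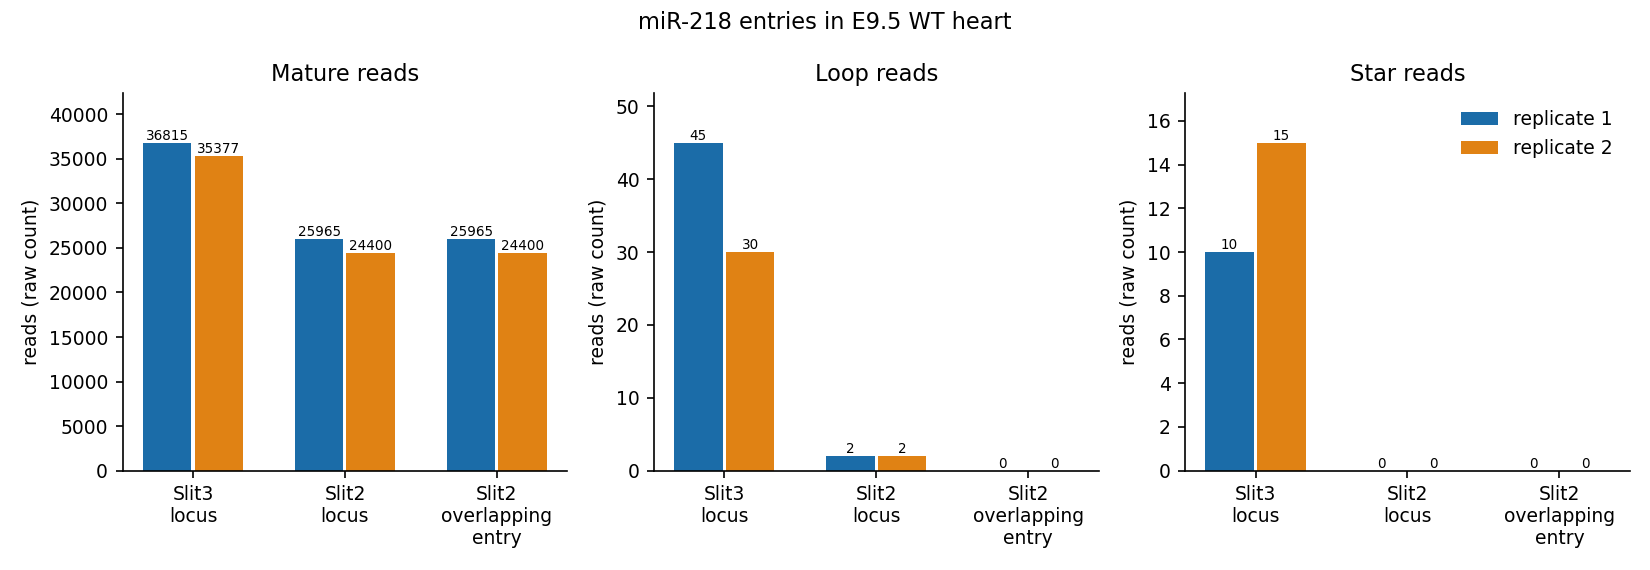
Raw counts of mature, loop and star reads at the 3 miR-218 entries, in replicate 1 (blue) and replicate 2 (orange), with the counts above the bars. The Slit2 entries hold 25965 and 24400 mature reads against 36815 and 35377 at Slit3, while loop and star reads reach 45 and 15 at Slit3 and at most 2 and 0 at the Slit2 entries.

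Nearly all reads counted at either hairpin lay on the mature arm. Star reads made up 0.0272% of mature and star reads at the Slit3 locus in replicate 1, with Wilson limits of 0.0148% and 0.05%, and 0.0424% in replicate 2, with limits of 0.0257% and 0.0699%. These gave a mean of 0.0348% ± 0.0108 (SD, n = 2). That is 1 star read for 3682 and for 2358 mature reads. At the Slit2 locus, 0 of 25965 and 0 of 24400 reads allow a share of up to 0.0116% and 0.0123%, taking 3 reads as the limit. The upper Wilson limit of the Slit2 locus, 0.0148% in replicate 1 and 0.0157% in replicate 2, met the lower limit of the Slit3 locus in replicate 1 and stayed below it in replicate 2. These shares take the mature reads counted at a locus as its own, although the arm is identical at both loci. The star window at Slit2 also starts 5 bases past the start of the RefSeq arm, so the loci were not compared on equal terms. The replicates named the same arm as mature and each gave 1000 or more mature reads for 183 entries. Among these the median star share was 0.753%, and 136 entries exceeded the Slit3 locus. In 33 entries no star read was found in either replicate. The low star share of miR-218 thus lay in the lower part of the range and was shared with many entries.

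**Figure D5:**
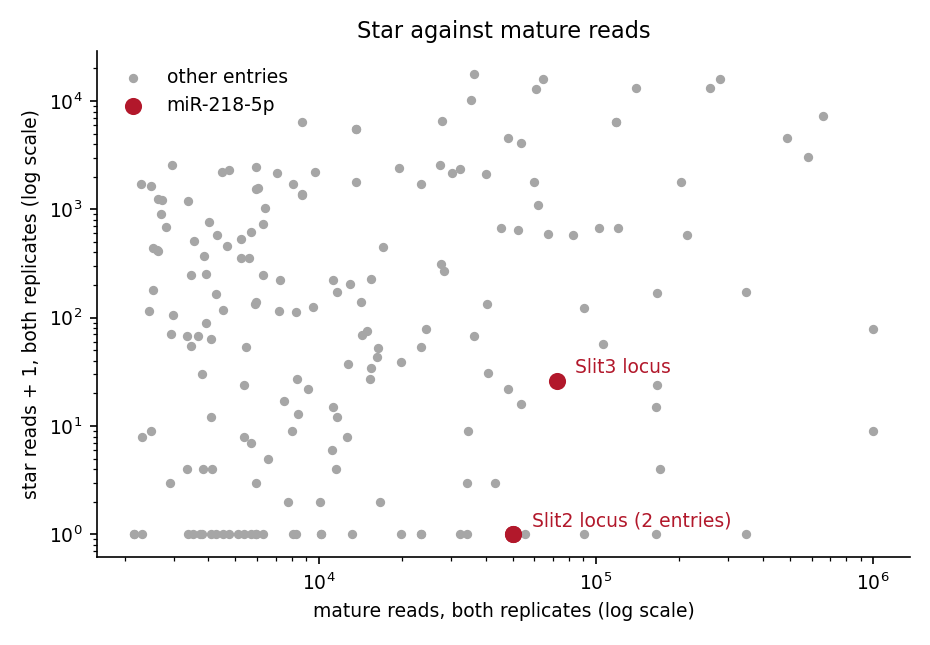
Star reads plus 1 against mature reads, both summed over the replicates and on log scales, for 183 entries that reached 1000 mature reads in each replicate. The miR-218-5p entries are in red, with 25 star reads at the Slit3 locus and 0 at the Slit2 entries.

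The loop reads of the Slit3 hairpin were few but high beside other hairpins. No loop read was counted in 510 of 568 entries of replicate 1 and in 465 of 523 entries of replicate 2. The 45 and 30 loop reads at Slit3 ranked 6 and 7 in their replicates and made up 5.75% and 3.98% of all loop reads. As a share of all reads on the precursor they were 0.122% and 0.0847%. The 2 loop reads of the Slit2 locus in each replicate lie under the limit of 3 reads.

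The third entry is a second reading of the Slit2 locus and not a further gene. It lies at 48615170 to 48615224 of chromosome 5, shares 20 bases with the Slit2 precursor, and these are the mature arm itself, from 48615205 to 48615224. Its mature counts, 25965 and 24400, were the same as those of the Slit2 entry, and it had no loop or star read. In this entry the mature arm forms the 3′ side of a 55-base hairpin with the bases upstream, whereas in the other it is the 5′ side of 64 bases. The miRDeep2 score, a log-odds score for a true precursor, was -3.0 in both replicates for the overlapping entry, 1.9 for the Slit2 locus and 2.3 and 2.2 for the Slit3 locus. The folding energy predicted by RNAfold was -15.0 kcal/mol for the overlapping entry, -23.1 for the Slit2 precursor and -24.0 for the Slit3 precursor. The median of all 620 precursors was -24.0 kcal/mol, and 575 of them had a lower energy than the overlapping entry. The Slit3 and Slit2 precursors were identical at 48 of 64 positions, and each had 16 of the 20 mature bases paired in the predicted fold.

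A miRNA represses transcripts mainly through seed matches in their 3′ UTRs, so these were sought in Slit and Robo genes, heparan sulfate genes and heart genes. No target mRNA was measured, so the matches describe sequence only. The search was for AAGCACA, which pairs with bases 2 to 8 of miR-218-5p, and for AGCACAA, which pairs with bases 2 to 7 followed by an A, on the transcript strand. Both overlap in the 8 bases AAGCACAA. Of 22 listed genes with an annotated 3′ UTR in GENCODE vM1, 9 (40.9%) held a match of at least 7 bases in their longest 3′ UTR. Among all 19915 genes with a 3′ UTR the share was 17.2%, but their UTRs are shorter, with a median of 893 against 1928 bases. The list includes Robo1 and Robo2, already known as targets, and these shares were not tested against each other.

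The matches in the receptors Robo1, Robo2 and Robo3 and in Glce are printed with the matched bases in capitals, as the 22 bases that end opposite the first base of the miRNA. Robo1, the receptor best known as a target, had 1 match of 8 bases, at bases 986 to 993 of a 3′ UTR of 1733 bases. Robo2 had a match of 8 bases at 461 to 468 and 1 of 7 bases at 2787 to 2793 of 3520 bases. Robo3, a divergent receptor of commissural axons, had 1 match of 7 bases in a 3′ UTR of 343 bases. Robo4, the endothelial receptor, had 0 in 636 bases. Glce, which encodes the epimerase that makes iduronic acid in heparan sulfate, had 2 matches of 8 bases in 2763 bases.

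Robo1, chr16:73045579-73045600, plus strand: ttttttggttttaaAAGCACAA

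Robo2, chr16:73895603-73895624, minus strand: ttttatttggtgatAAGCACAA

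Robo2, chr16:73893277-73893298, minus strand: gtcacggcagacccAAGCACAg

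Robo3, chr9:37223829-37223850, minus strand: cttgtgactcactgAAGCACAc

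Glce, chr9:61907216-61907237, minus strand: acggtcacatacatAAGCACAA

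Glce, chr9:61905204-61905225, minus strand: agcctttgcagttcAAGCACAA

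A match has to be read against the length of the UTR. Among genes with a 3′ UTR within 20% of the same length, a match of at least 7 bases was held by 23.9% for Robo1, 45.9% for Robo2, 4.45% for Robo3 and 35.1% for Glce. A match of 8 bases was rarer, with 5.01% for Robo1, 9.34% for Robo2 and 8.05% for Glce. Sdc2, which encodes the heparan sulfate proteoglycan syndecan-2, had 2 matches of 7 bases. Srgap2, which encodes a GTPase-activating protein downstream of ROBO receptors, had 1 match of 8 bases, and Srgap3, Gja1 and Sp1 had 1 of 7 bases each. Matches of at least 7 bases were frequent at these lengths. They were held by 51.6% of genes with a UTR like that of Srgap2, 55.9% for Srgap3 and 57.7% for Sp1. For Sdc2 and Gja1 the values were 28.2% and 23.9%. A match of 8 bases, as in Srgap2, was rarer, with 10.8% of genes at its length. The longest 3′ UTRs of Slit1, Slit2 and Slit3 had none, nor had those of Srgap1 or of the heparan sulfate genes Ndst1, Ext1, Ext2 and Gpc1. None was found either in the heart transcription factor genes Tbx5, Hand2 and Nkx2-5 or in the vascular factor gene Vezf1. Hs6st3 was not analysed here, for want of an annotated 3′ UTR.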

How the data were processed

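Total RNA of E9.5 WT hearts was extracted with Trizol, and small RNA libraries were made with the TruSeq Small RNA kit and sequenced as single-end reads on HiSeq2500. Per the labels, miRDeep2 was run on the cleaned reads against mm9; its version, like adapter trimming and the miRBase release, is not given in the sources used here. The deposited values are raw counts of total, mature, loop and star reads for each precursor of a known miRNA, 1 table per replicate, together with the deposited miRDeep2 score. The tables hold 568 and 523 entries with 5067168 and 4939193 reads in all. How reads with several equally good positions were counted is not stated, and it bears on every miRNA with several loci.

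Same-strand entries were paired between the replicates where the overlap reached 50% of each precursor (471 pairs, 620 entries in all). All 620 precursor sequences matched NCBIM37, and gene models were those of GENCODE vM1. Plus-strand entries of the tables were found to count starts from 1 with the end excluded, and minus-strand entries from 0; positions are given with both ends included. An entry missing from a replicate has no value there. Names follow the arm that held the mature reads in the tables. Replicates were compared over entries with at least 20 mature reads in sum, at an adjusted p of 0.05. The test was run on simulated data first. Tools were Python 3.11.15, scipy 1.17.1, statsmodels 0.14.6, RNAfold 2.7.2, R 4.3.3, edgeR 4.0.16 and DESeq2 1.42.0.

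The members, gene list and tests were chosen with earlier results of these data known. The text names every miR-218 entry, miRNAs in or near the host genes or with the same seed, the 3 entries on either side by mean share, up to 5 pairs of loci with the same mature sequence by share, and a list of 23 genes for seed matches. Alternatives varied the counting of identical sequences, the reads used, the scaling, the minimum of reads and the annotation of 3′ UTRs, and left out each replicate.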

Additional observations from a re-analysis of the deposited data

How the results depend on the processing

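The share of miR-218-5p depended most on how identical mature sequences were counted. With each mature sequence counted once, the Slit3 entry rose from 0.740% to 1.01%. Taking all reads of the precursors in place of mature reads gave 0.722% at the Slit3 locus and 0.503% at the Slit2 locus. Leaving out each replicate gave 0.736% to 0.745% at Slit3 and 0.508% to 0.525% at Slit2. The log2 ratio between replicates at Slit3 was below 0 under every scaling tried but passed the exact binomial test only under TMM (-0.076) and DESeq2 size factors (-0.085), which centre the median entry nearer to 0. At Slit2 the ratio of -0.049 no longer passed when edgeR's common dispersion was used, since that test adds the spread between the same 2 replicates. It passed only 3 of 431 entries. The star share of the Slit3 locus ran from 0.0272% to 0.0424% with either replicate left out. A further 27 alternative values, those without a replicate included, stayed close to the reported ones or on the same side of the threshold. No miR-218 value changed direction. The shares without a replicate could not do otherwise, since each of 2 replicates lies within their SD of the mean. Alternatives for the split of star reads, and the division of mature reads by star reads, were counted among the 27 without such a check. The balance of the entries that differ between the replicates did turn, from 119 higher in replicate 2 against 58 in replicate 1 to 86 against 92 under TMM and 78 against 98 under DESeq2 size factors. The 27 values include alternatives for the number of entries that differ between the replicates, 177, with 137 when each mature sequence was counted once. They also include those for the number of listed genes with a seed match, 9, with 13 for matches of 6 bases and 11 over all transcripts. The genes gained over all transcripts were Slit2, with 2 matches, and Ext1, with 1, in 3′ UTRs other than the longest. Dividing mature reads in proportion to star reads gave no star share for the Slit2 locus, which then had no reads. No paired analysis was possible because there is only 1 group of samples. Depth and the unlike windows limit the star and loop comparison, which rests on 57 and 47 reads in the replicates.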
